A study of Mus musculus with 9 samples.

Results

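The CCR4-NOT complex is the main cytoplasmic deadenylase of animal cells, and the mRNAs that encode 10 of its subunits were followed through an RNA immunoprecipitation of phosphorylated UPF1 (p-UPF1). The 10 genes were Cnot1, Cnot2, Cnot3, Cnot4, Cnot6, Cnot6l, Cnot7, Cnot8, Cnot10 and Cnot11. They were chosen by name as subunits of the complex, by a rule without any measured value but with earlier results of these data known, and were 10 of the 27179 genes in the count table. All 10 passed the filter on low counts, as did 13129 genes in all, and these were tested. The study purified CD43-negative splenic B cells of wild-type mice and activated them for 72 h with CD40L (5 ug/mL), anti-IgM (10 ug/mL) and IL-4 (20 ng/mL). The study's methods name an antibody to CD40 where the labels name CD40L. Libraries of 3 kinds were made from such lysates, with 3 libraries each: RNA brought down by an antibody to p-UPF1, RNA brought down by normal rabbit IgG, and RNA of the lysate itself (input). No group carried a genetic change. The study's methods describe the points of its graphs as independent biological replicates in general, but the sources used here do not say of these libraries whether the 3 of a group came from separate mice or cultures. The P values measure only the spread between these libraries, which may be technical.

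CCR4-NOT shortens the poly(A) tail of mRNAs, which commonly opens the way to decapping and decay. CNOT1 is the scaffold on which the other subunits assemble. CNOT6 and CNOT6L (CCR4 type) and CNOT7 and CNOT8 (CAF1 type) are the nucleases, CNOT2 and CNOT3 form the NOT module, CNOT10 and CNOT11 dock at the N-terminal part of CNOT1, and CNOT4 is a ubiquitin ligase that joins the complex more loosely in mammals. UPF1 is the RNA helicase at the centre of nonsense-mediated mRNA decay (NMD). It is phosphorylated on RNAs at which translation has ended in an unfavourable setting, and the phosphorylated form recruits decay factors, deadenylases among them. The values below concern the mRNAs of the deadenylase subunits as RNAs found with p-UPF1, not the subunit proteins.

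Because UPF1 acts where translation ends, the stop codons of the 6 members that the results turn on most are shown here. Cnot6 and Cnot11 were the members that rose over IgG, Cnot10 and Cnot4 were those at or below a log2 fold change of -1 over input, and Cnot6l and Cnot8 are nucleases that moved differently from their paralogs. Each line gives, 5′ to 3′ on the mRNA strand, 12 coding bases, the stop codon in capitals and 15 bases after it, read from the RefSeq mRNA on GRCm38.
Cnot6: cctggcaggaggTAGtcactttcagaggac
Cnot6l: cctaatcggaggTAGtggagtacagccccg
Cnot8: aacatgcagcagTGAtggtgcgtgcaccgt
Cnot10: gtgcagaggaagTGAgagcttgcctcggga
Cnot11: aaaatatcaaaaTAAtacctcactagaact
Cnot4: ctggaccgccacTAAgcaaagagggaattg
These stop codons lie at chr11:49675193-49675195 (minus strand) for Cnot6, chr5:96077180-96077182 (minus) for Cnot6l, chr11:58117586-58117588 (plus) for Cnot8, chr9:114591538-114591540 (minus) for Cnot10, chr1:39545264-39545266 (plus) for Cnot11 and chr6:35023131-35023133 (minus) for Cnot4. Over the 10 members, TAA ended 3 coding sequences, TAG 3 and TGA 4. Of 11896 tested genes with a RefSeq mRNA, TAA ended 2977, TAG 2770 and TGA 6148.

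Total counts ran from 23251890 to 24802119 for p-UPF1, from 17372510 to 18550508 for IgG and from 19873687 to 24945286 for input, and the lowest count of any member in any library was 583, for Cnot4. Libraries of a group differed by more than sampling noise (chi-square per degree of freedom 2.833 to 4.039 for p-UPF1, 4.643 to 9.937 for IgG and 1.377 to 1.733 for input), and IgG library A stood apart from the other 2 IgG libraries. Without it, the calls of the members over IgG were kept for all but Cnot3. The B cell label was borne out, since all 6 B cell markers were detected, with a summed level of 2275 to 2365 CPM (counts scaled to the same total in each library) for p-UPF1, 2636 to 2799 for IgG and 3119 to 3183 for input. The 2 plasma cell markers summed to between 17.1 and 27.72 CPM over the 9 libraries, the 5 T cell markers to at most 0.9057, the 4 myeloid markers to at most 0.7216 and the 2 NK cell markers to at most 0.4731 CPM. Ncr1, Hba-a1 and Hbb-bs were at 0 in every library. The part of these differences in the results below was not tested. In such bulk lysates, fewer cells of a type and less RNA per cell cannot be told apart. Upf1, the gene of the precipitated protein, was at 500 to 505 CPM in p-UPF1, 115 to 122 in IgG and 121 to 123 in input libraries.

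The first question was whether the subunit mRNAs came down with p-UPF1 beyond the background of beads and antibody. As scaled shares of a library, Cnot6 and Cnot11 alone did so, to a small extent. Most members had a lower share in the p-UPF1 than in the IgG precipitate. The amount of RNA brought down is not given in the sources used here, so absolute amounts cannot be compared. Every adjusted P given here comes from the quasi-likelihood test of edgeR, adjusted by Benjamini-Hochberg over all 13129 genes. With the threshold at 0.05, 2 members rose, 7 fell and Cnot6l did not pass. Of all genes tested, 40.4% rose and 42.2% fell in this contrast, so a call by itself was common. The members' median log2 fold change over IgG was -0.23, beside -0.03 over all genes, and ranged from -0.99 (Cnot10) to 0.72 (Cnot6). No member reached a log2 fold change of 1 in either direction, a size that 22.2% of genes passed upward and 21.9% downward. Cnot10, at -0.99, lay at this limit and passed it in 6 of 20 alternative settings, by most with upper-quartile scaling (-1.13), library size alone (-1.15) and an input library as the TMM reference (-1.08). The libraries of the 2 groups did not overlap for 9 members, 3 higher and 6 lower in p-UPF1, where 40.6% of all genes were higher and 41.5% lower without overlap.

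Against the input lysate, 3 members rose (Cnot1, Cnot6 and Cnot11) and 7 fell, with no overlap of libraries for any of the 10. Of all genes, 40.8% rose and 42.6% fell over input, and 43.2% were higher and 45% lower without overlap. The members' median log2 fold change over input was -0.43 beside -0.03 over all genes. Cnot10 and Cnot4 fell to a log2 fold change of -1 or below, as did 24.5% of all genes. Both lay close to that limit and were at -0.92 and -0.98 with an IgG library as the TMM reference, at -0.90 and -0.96 with no filter on low counts, and Cnot10 was at -0.99 with DESeq2 size factors. The contrasts over IgG and over input share the p-UPF1 libraries, so they are not independent of each other.

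By the criterion of the study's methods for a p-UPF1-bound RNA, with minimum log2 fold changes of 1 against IgG and 2 against input and both adjusted P values under 0.05, 0 of the 10 members were bound. Of all genes tested, 6.25% met it. The unadjusted P was under 0.05 for 9 members over IgG and for all 10 over input, in contrasts where over 8 in 10 of all genes passed even after adjustment, and the count stayed at 0 with DESeq2 and with limma-voom. The member nearest to the limits was Cnot6, at 0.72 over IgG and 0.56 over input.

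**Figure D1:**
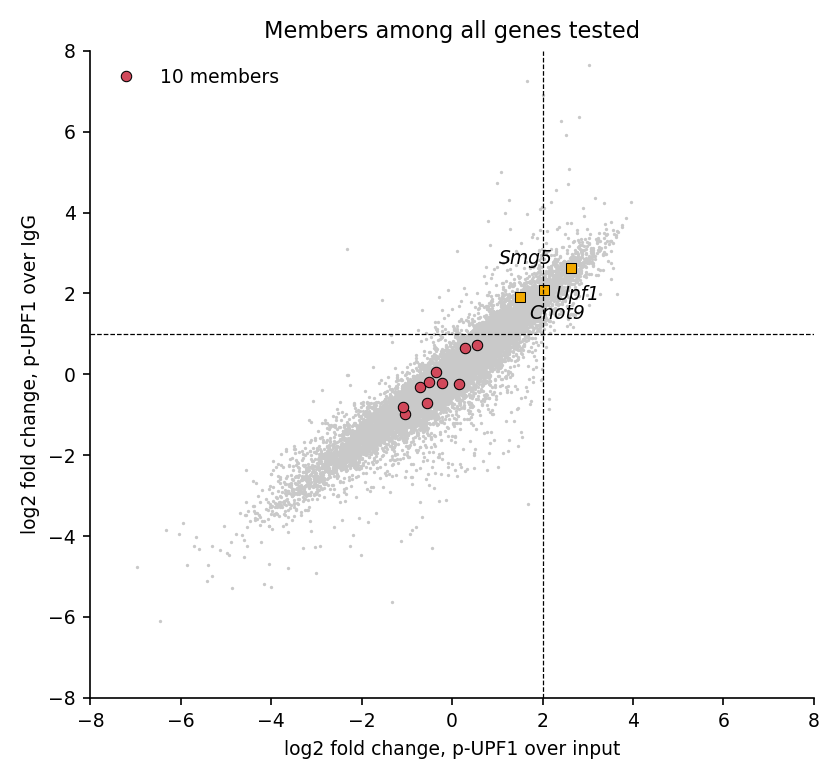
The x axis gives the log2 fold change of p-UPF1 over input and the y axis that of p-UPF1 over IgG, with a grey point for each of 13129 genes, a red circle for each of the 10 members and orange squares for Cnot9, Smg5 and Upf1. Dashed lines mark the limits of the criterion, 2 over input and 1 over IgG, and all 10 members lie below and to the left of their crossing, with Cnot6 highest at 0.72 and Cnot10 lowest at -0.99 on the y axis.

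CNOT1 is the scaffold, and its mRNA was the only member above input in both precipitates. Cnot1 (chr8:95718931-95808113, minus strand, GRCm38) was at 499, 511 and 552 CPM in the p-UPF1 libraries, at 598, 626 and 634 in IgG and at 460, 474 and 480 in input. All CPM values of genes are scaled by TMM factors, which correct for the makeup of the libraries. The 3 groups did not overlap, with IgG highest and input lowest. Cnot1 fell over IgG (log2 fold change -0.25, SE 0.0428, adjusted P = 4.63e-05) and rose over input (0.14, SE 0.0428, adjusted P = 0.00557), and the IgG precipitate itself was above input (0.39, SE 0.0429, adjusted P = 1.33e-06). With upper-quartile scaling the difference from input was 0.08 and did not pass (adjusted P = 0.08).

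The NOT module subunits CNOT2 and CNOT3 pair with each other and bind repressors that bring the complex to mRNAs. Cnot2 (chr10:116485160-116581900, minus strand) was at 77.7, 79.0 and 74.2 CPM in p-UPF1, at 98.5, 95.8 and 94.1 in IgG and at 126, 128 and 126 in input libraries. These groups were stepped, with input highest and p-UPF1 lowest and no overlap. Cnot2 fell over IgG by 0.32 (SE 0.0433, adjusted P = 3.6e-06) and over input by 0.72 (SE 0.0426, adjusted P = 8.59e-11) on the log2 scale.

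Cnot3 (chr7:3645247-3661109, plus strand) was at 71.1, 64.4 and 67.3 CPM in p-UPF1, at 83.4, 69.7 and 76.6 in IgG and at 95.5, 97.7 and 94.1 in input libraries. The lowest IgG library lay below the highest p-UPF1 library, so these groups overlapped, while both lay below input. Cnot3 fell by 0.50 on the log2 scale against input (SE 0.0595, adjusted P = 7.13e-07) and by 0.18 against IgG (SE 0.0606, adjusted P = 0.0127). The call over IgG rested on single libraries, with a log2 fold change of -0.11 without IgG library A (adjusted P = 0.0547) and of -0.14 without p-UPF1 library B (adjusted P = 0.0713). The annotated exons of Cnot3 overlap those of Leng1 on the opposite strand by 382 bases, and Leng1 was at 86.05 CPM in p-UPF1, 23.1 in IgG and 23.97 in input libraries. Whether strand was used in counting these reads is not given in the sources used here, so the share of Leng1 reads counted as Cnot3, if any, cannot be told apart. The exons of Cnot1, Cnot2 and Cnot4 also overlap genes on the opposite strand, by 77 to 374 bases, an uncertainty of the same kind. The genes that overlap Cnot1 were at group means of 4.43 to 19.7 CPM, against 471 to 620 for Cnot1. Those that overlap Cnot2 and Cnot4 had no reported counts, so their levels are not known.

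The CCR4-type nucleases CNOT6 and CNOT6L are close paralogs, and their mRNAs differed in the precipitate. Cnot6 (chr11:49671497-49713401, minus strand) was at 211, 212 and 216 CPM in p-UPF1, at 116, 132 and 140 in IgG and at 140, 150 and 143 in input libraries. All 3 p-UPF1 libraries lay above every other library, and the highest IgG library all but met the lowest input library. Cnot6 rose 1.65-fold over IgG (0.72 on the log2 scale, SE 0.0564, adjusted P = 3.83e-09) and 1.48-fold over input (0.56, SE 0.0559, adjusted P = 7.93e-08). It was the highest member in both contrasts, at the 70.9th percentile of all genes over IgG and the 66.6th over input.

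Cnot6l (chr5:96070333-96164198, minus strand) was at 98.9, 102 and 100.1 CPM in p-UPF1, at 94.4, 97.7 and 97.8 in IgG and at 128, 127 and 130 in input libraries. The p-UPF1 libraries lay just above the IgG libraries, and both groups lay well below input. The log2 fold change over IgG was 0.05 (SE 0.0404, adjusted P = 0.231), and it turned to -0.11 with scaling by library size alone (adjusted P = 0.0163). Cnot6l fell over input (log2 fold change -0.36, SE 0.0397, adjusted P = 3.27e-07), to about the same extent as the IgG precipitate did (-0.41, adjusted P = 4.41e-07).

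The CAF1-type nucleases CNOT7 and CNOT8 bind the BTG and TOB adaptors. Cnot7 (chr8:40492538-40515847, minus strand) was at 81.7, 79.1 and 74.4 CPM in p-UPF1, at 90.2, 94.0 and 88.3 in IgG and at 91.7, 92.7 and 88.4 in input libraries. The p-UPF1 libraries lay below all others, and IgG and input covered nearly the same range. Cnot7 fell by 0.21 over IgG (SE 0.0482, adjusted P = 0.000706) and by 0.21 over input (SE 0.0479, adjusted P = 0.000616) on the log2 scale. The call over input was lost with an IgG library as the TMM reference (-0.10, adjusted P = 0.0624) and with no filter on low counts (-0.08, adjusted P = 0.218).

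Cnot8 (chr11:58092794-58118597, plus strand) was at 52.5, 49.0 and 48.4 CPM in p-UPF1, at 83.8, 85.6 and 77.8 in IgG and at 71.5, 74.8 and 74.9 in input libraries. The p-UPF1 libraries lay far below the others, and IgG lay above input. Its level in p-UPF1 was 0.607 of that in IgG (log2 fold change -0.72, SE 0.0528, adjusted P = 1.54e-09) and 0.678 of that in input (-0.56, SE 0.0528, adjusted P = 4e-08).

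CNOT10 and CNOT11 form a module of their own at the N-terminal part of CNOT1, and their mRNAs moved in opposite directions. Cnot10 (chr9:114585874-114640220, minus strand) was at 34.4, 36.0 and 35.3 CPM in p-UPF1, at 69.8, 72.3 and 67.9 in IgG and at 74.6, 71.9 and 69.3 in input libraries. The p-UPF1 libraries were close to each other and far below the rest, while IgG and input overlapped. Its level in p-UPF1 was 0.503 of that in IgG (log2 fold change -0.99, SE 0.0514, adjusted P = 1.54e-11) and 0.489 of that in input (-1.03, SE 0.0511, adjusted P = 7.18e-12).

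Cnot11 (chr1:39535701-39546881, plus strand) was at 52.1, 56.0 and 56.3 CPM in p-UPF1, at 35.6, 33.4 and 35.5 in IgG and at 43.5, 47.1 and 44.1 in input libraries. The p-UPF1 libraries were highest and the IgG libraries lowest, with no overlap among the 3 groups. Cnot11 rose 1.57-fold over IgG (log2 fold change 0.65, SE 0.0574, adjusted P = 1.7e-08) and 1.22-fold over input (0.29, SE 0.0556, adjusted P = 0.00016). The IgG precipitate lay below input for this gene (log2 fold change -0.37, adjusted P = 7.06e-05).

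CNOT4 carries a RING domain and marks proteins with ubiquitin. Cnot4 (chr6:35022065-35133754, minus strand) was at 28.4, 26.3 and 26.7 CPM in p-UPF1, at 44.4, 47.7 and 49.5 in IgG and at 55.9, 57.7 and 60.8 in input libraries, with no overlap among the groups. Its level in p-UPF1 was 0.576 of that in IgG (log2 fold change -0.80, SE 0.0614, adjusted P = 3.04e-09) and 0.468 of that in input (-1.10, SE 0.0601, adjusted P = 2.89e-11), the lowest of the members over input.

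**Figure D2:**
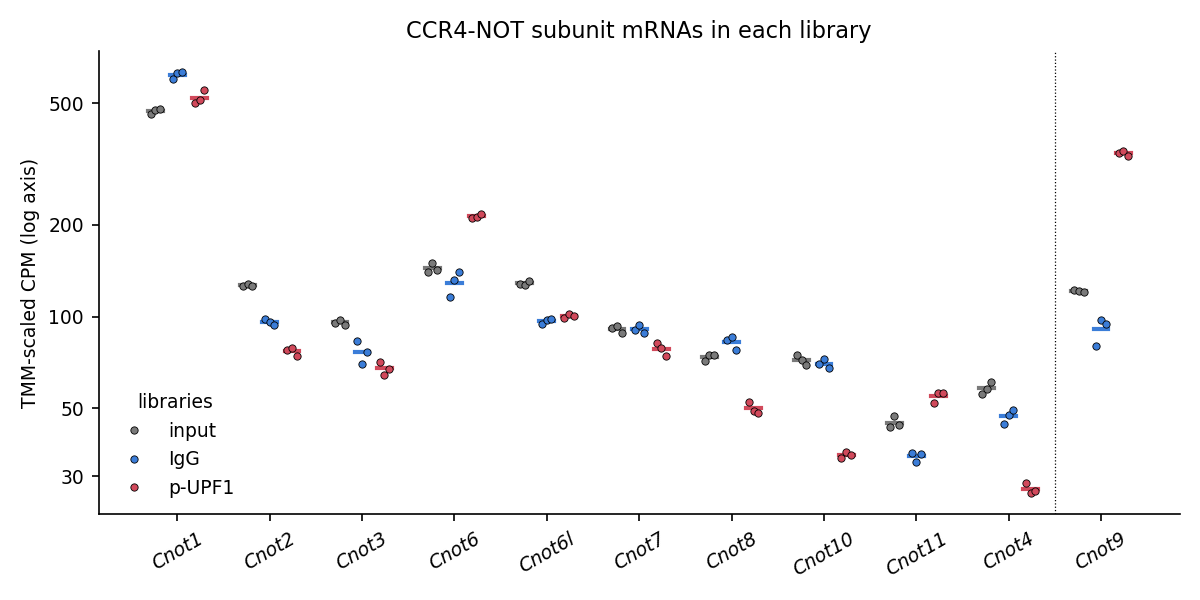
Each point is a library and each bar the mean of 3 libraries (grey, input; blue, IgG; red, p-UPF1), with the gene on the x axis and the TMM-scaled CPM on a logarithmic y axis. For Cnot6 and Cnot11 the red points lie above the blue and grey ones, for Cnot2, Cnot7, Cnot8, Cnot10 and Cnot4 they lie below, and Cnot9, to the right of the dotted line, is at 336 to 349 CPM in p-UPF1 against 80.1 to 97.7 in IgG.

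**Figure D3:**
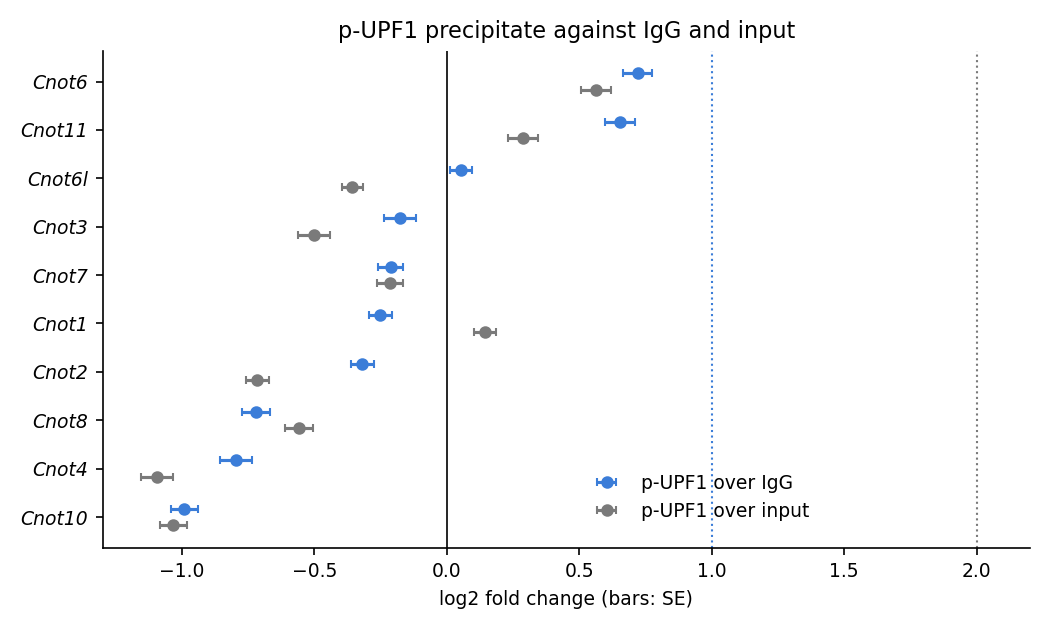
The x axis gives the log2 fold change with its SE for p-UPF1 over IgG (blue) and over input (grey), and the members are ordered by the first. The dotted lines mark the limits of the bound criterion, 1 over IgG and 2 over input. No member reaches either line, and Cnot10 and Cnot4 have the lowest values in both contrasts.

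The IgG precipitate served as the background, and it too differed from the lysate. Of the members, 2 rose in IgG over input (Cnot1 and Cnot8), 6 fell, and Cnot7 and Cnot10 did not pass. Of all genes, 18.2% rose and 34.7% fell in this contrast. The libraries of 2 members were higher and those of 6 lower without overlap, beside 19.6% and 38.5% of all genes. The log2 fold changes ranged from -0.41 (Cnot6l) to 0.39 (Cnot1), a narrower range than in either contrast of p-UPF1, with a median of -0.23 over the members and of -0.10 over all genes. The Cnot6 call (-0.16, SE 0.0571, adjusted P = 0.0291) rested on libraries that all but met and was lost under 8 of the 10 alternative settings that kept all libraries. The Cnot8 call (0.16, SE 0.0515, adjusted P = 0.0153) was lost without IgG library B (0.13, adjusted P = 0.066) and without input library A (0.13, adjusted P = 0.105).

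To compare members without any scaling between libraries, the ratio of the counts of paralogs or partners was taken within each library. Cnot6 had 2.08 to 2.16 times the counts of Cnot6l in p-UPF1 libraries, 1.227 to 1.432 times in IgG and 1.093 to 1.178 times in input. On the log2 scale the mean ratio was 1.09 ± 0.03 in p-UPF1, 0.41 ± 0.11 in IgG and 0.17 ± 0.06 in input (SD, n = 3 each). The p-UPF1 libraries thus favoured Cnot6 by 0.67 over IgG (SE 0.0669) and by 0.92 over input (SE 0.038). Cnot7 relative to Cnot8 stood at a log2 ratio of 0.65 ± 0.04 in p-UPF1, 0.14 ± 0.04 in IgG and 0.30 ± 0.06 in input (SD, n = 3 each), with differences of 0.51 over IgG (SE 0.031) and 0.35 over input (SE 0.0408).

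Cnot11 relative to Cnot10 gave the widest shift of the 4 ratios. Its count was 1.515 to 1.596 times that of Cnot10 in p-UPF1 libraries but 0.4615 to 0.5231 times in IgG and 0.5826 to 0.6554 times in input, so that the order of the 2 counts turned over. The difference in log2 ratio was 1.65 over IgG (SE 0.0594) and 1.32 over input (SE 0.0556). Cnot2 relative to Cnot3 shifted least of the 4. Its log2 ratio was 0.19 ± 0.09 in p-UPF1, 0.33 ± 0.11 in IgG and 0.40 ± 0.02 in input (SD, n = 3 each). That ratio overlapped between p-UPF1 and IgG (difference -0.14, SE 0.0848, two-sided exact permutation P = 0.2, adjusted 0.218) and between IgG and input (difference -0.07, SE 0.0664, exact P = 0.4), and was lower in all p-UPF1 than in all input libraries (difference -0.21, SE 0.0543). For the 10 of 12 differences without overlap, the two-sided exact permutation test gave P = 0.1, the smallest that 3 against 3 libraries allow, and 0.12 after Benjamini-Hochberg adjustment over the 12. None could pass 0.05 in this design.

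**Figure D4:**
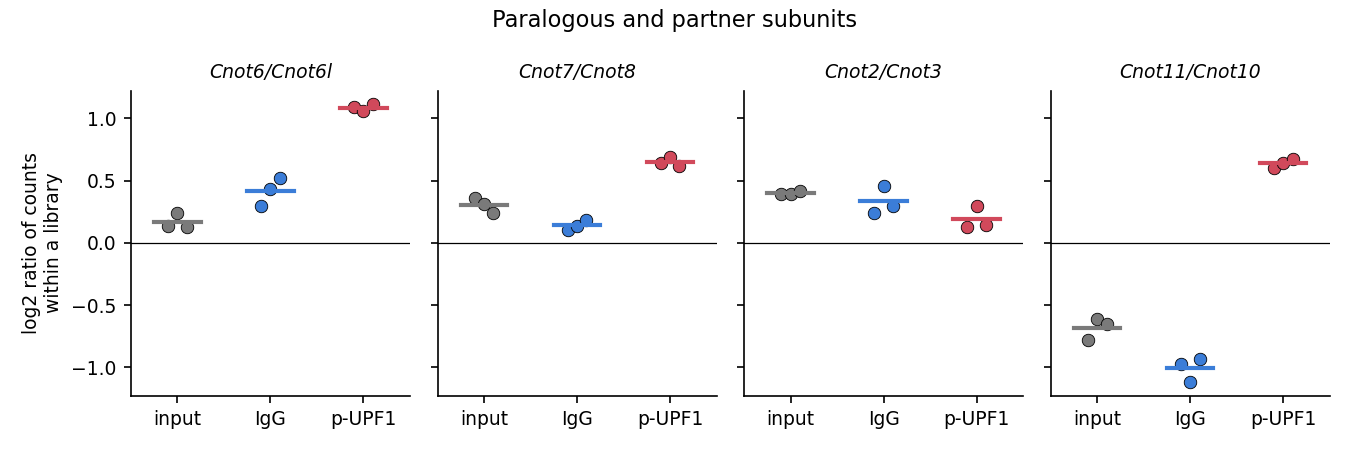
Each panel gives the log2 ratio of the counts of 2 members within a library on the y axis, with 1 point per library, a bar at the mean of 3 and the groups along the x axis. Cnot6 over Cnot6l, Cnot7 over Cnot8 and Cnot11 over Cnot10 are highest in p-UPF1 libraries, at means of 1.09, 0.65 and 0.64, while Cnot2 over Cnot3 overlaps between p-UPF1 and IgG.

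The paralogs are similar enough in coding sequence to ask whether reads could be shared. Cnot6 and Cnot6l are identical at 73.3% of 1653 aligned coding bases, and their longest shared run has 20 bases, cataaagacttcaaggaact. Cnot7 and Cnot8 are identical at 70.9% of 858 aligned bases, with a longest shared run of 20 bases, tcatttcacagtggttatga. Both runs are printed because they bound the stretch over which a read could match either gene exactly within the coding sequence.

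Levels of different members can be compared only per length, as CPM per kb of annotated exon. In input, Cnot1 was highest at 52.9 ± 1.19 CPM per kb, followed by Cnot2 at 33.6 ± 0.353 and Cnot3 at 33.0 ± 0.629, whose libraries overlapped. Cnot7 followed at 28.8 ± 0.719, and then Cnot6 at 25.1 ± 0.887, Cnot10 at 24.1 ± 0.893 and Cnot8 at 23.1 ± 0.602, each overlapping with its neighbour. Cnot6l at 14.6 ± 0.192, Cnot11 at 13.7 ± 0.596 and Cnot4 at 8.09 ± 0.342 CPM per kb (SD, n = 3) were apart from one another. Of the nucleases, Cnot6l was thus the lowest per length in the lysate.

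In p-UPF1 libraries the order per length changed. Cnot1 remained highest at 58.4 ± 3.07 CPM per kb, but Cnot6 was second at 37.0 ± 0.525, apart from Cnot7 at 24.8 ± 1.17. Cnot6 made up 16.6% of the members' summed per-length level in p-UPF1, 8.98% in IgG and 9.76% in input. Cnot11, at 16.8 ± 0.723, overlapped with Cnot8 at 15.7 ± 0.697, and Cnot10 at 11.8 ± 0.269 overlapped with Cnot6l at 11.4 ± 0.162. Cnot4 was lowest at 3.78 ± 0.156 CPM per kb (SD, n = 3). In IgG libraries Cnot1 was at 69.5 ± 2.1, and Cnot7, Cnot3, Cnot8 and Cnot2 followed at 28.7 to 25.5 CPM per kb, each overlapping with its neighbour. Lengths are those of the union of curated exons. With the length of the representative mRNA instead, Cnot2 in input was at 46.0 CPM per kb, and Cnot4 was at 16.5 in input and 13.4 in IgG, above Cnot6l and Cnot11 in both groups, and still lowest in p-UPF1 at 7.7. Under that length Cnot8 lay above Cnot6 in input, at 29.9 against 25.1 CPM per kb, and above Cnot11 in p-UPF1, at 20.3 against 16.8.

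**Figure D5:**
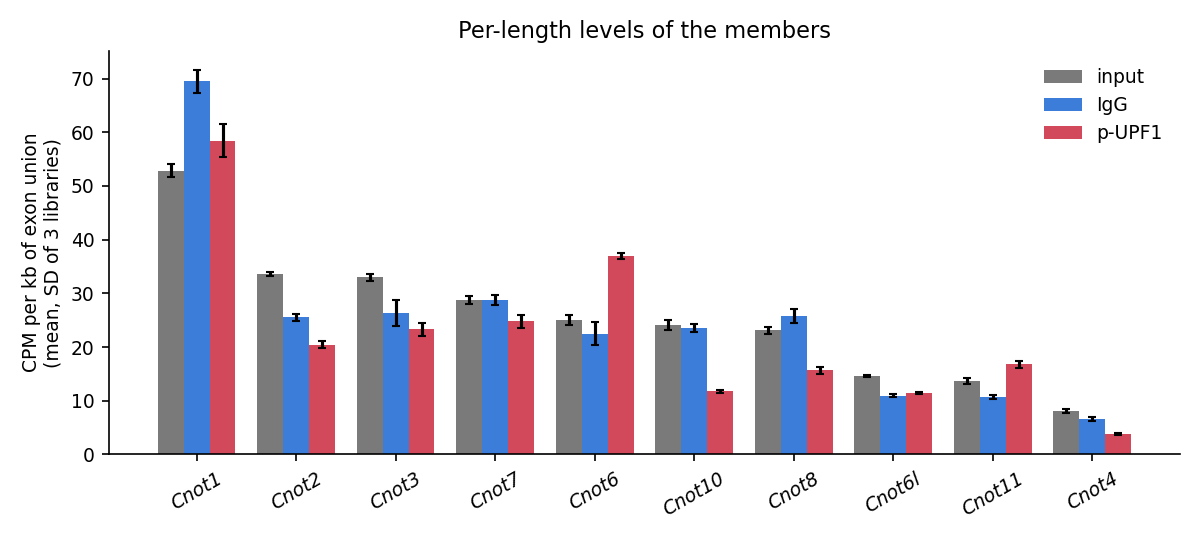
Bars give the mean and error bars the SD of 3 libraries in CPM per kb of exon union, for input (grey), IgG (blue) and p-UPF1 (red), with the members ordered along the x axis by their input level. Cnot6 is second to Cnot1 in p-UPF1, at 37.0 CPM per kb, and the fifth in input, at 25.1, where with the representative mRNA length it lies below Cnot8 too.

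Summed over the 10 members, the mRNAs took 1224 ± 23.4 CPM for p-UPF1, 1343 ± 25.5 for IgG and 1306 ± 18.3 for input (SD, n = 3). With this scaling the sum was lowest in p-UPF1. It was not recomputed under the others, so the order of p-UPF1 and input may depend on the scaling. With an IgG library as TMM reference, the median of all genes over input went from -0.03 to 0.08. Cnot1 alone held 521 CPM of the sum in p-UPF1, 620 in IgG and 471 in input.

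The representative mRNAs share no annotated exon junction of the kind that marks a classical NMD substrate. In the representative RefSeq mRNA of each member, 0 of 10 had an exon junction more than 50 nt after the stop codon, as had 0.286% of all genes with a RefSeq mRNA. Cnot10 alone had any junction after its stop codon, at 22 nt, as had 3.81% of all genes, and it was among the members that fell. GENCODE lists transcripts of the NMD biotype for 5 members, 3 each for Cnot1, Cnot2 and Cnot10 and 1 each for Cnot3 and Cnot6l, and for 29.4% of all genes. None is listed for the other 5, of which Cnot6 and Cnot11 rose and Cnot4, Cnot7 and Cnot8 fell over IgG. Upstream ATG triplets in the 5′ UTR were present in 8 of 10 members and in 48.5% of all genes. They were absent from Cnot11 and Cnot2, which moved in opposite directions. The members also had longer 5′ UTRs (median 298 nt beside 163 over all genes) and more GENCODE transcripts (median 8 beside 5). The part of this in the shares with an upstream ATG or an NMD transcript was not tested. Gene-level counts do not separate isoforms.

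A long 3′ UTR is another feature known to favour UPF1 binding, and the members differ widely in it. The 3′ UTR measured 6847 nt in Cnot6l, 3696 in Cnot6, 1615 in Cnot11, 1476 in Cnot1, 1449 in Cnot7, 1066 in Cnot4, 1039 in Cnot2, 1009 in Cnot8, 488 in Cnot10 and 283 in Cnot3, with a median of 1258 nt beside 1015 over all genes. Cnot6 and Cnot11 thus followed Cnot6l as the longest, and Cnot10 was the shortest but for Cnot3. Across the 10 members, Spearman's rho between 3′ UTR length and log2 fold change was 0.661 over IgG and 0.673 over input (Pearson's r 0.479 and 0.357). Across 11896 genes rho was 0.356 and 0.371. Of the 5 features compared, 3′ UTR length had the highest rho. Over the members rho was 0.333 and 0.358 for mRNA length and -0.115 and -0.0909 for coding length. It was -0.289 and -0.222 for exon number and -0.345 and -0.273 for GC content. By Pearson's r over the members, mRNA length was above 3′ UTR length over input (0.433 against 0.357) and below it over IgG (0.31 against 0.479). Across the 11896 genes, rho for mRNA length was 0.295 over IgG and 0.355 over input. These correlations are across genes that share the same libraries and are given as a description. Cnot6l, with the longest 3′ UTR, had a log2 fold change of only 0.05 over IgG, and Cnot3, with the shortest, was not the lowest member.

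Cnot9, the subunit that binds GW182 proteins and other recruiters, was not on the list of 10 and belonged to the list of other deadenylation genes. It was at 342, 349 and 336 CPM in p-UPF1, at 80.1, 97.7 and 94.4 in IgG and at 122, 121 and 121 in input libraries. The p-UPF1 libraries lay far above all others. Cnot9 rose 3.77-fold over IgG (log2 fold change 1.92, SE 0.0577, adjusted P = 1.18e-14) and 2.82-fold over input (1.497, SE 0.0562, adjusted P = 1.77e-13). It passed the limit over IgG and not that over input, and so was not bound by the criterion. Its 3′ UTR has 1988 nt.

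The other genes of the pathway were a list of 34, of which 33 were tested and Btg4, with 3 counts in all, was not. Over IgG, 11 rose, 20 fell and 2 did not pass, and their median was -0.38 on the log2 scale, where 40.4% of all genes rose and 42.2% fell. Over input, 11 rose, 18 fell and 4 did not pass, with a median of -0.16, where 40.8% of all genes rose and 42.6% fell. All 5 tested BTG and TOB adaptors, which tie the CAF1-type nucleases to poly(A)-binding protein or to transcript-specific repressors, fell in both contrasts (median -1.40 over IgG and -0.76 over input). The first median is that of Btg2, singled out after its values were seen, which was at 80.5 CPM in p-UPF1, 212 in IgG and 89.9 in input, with log2 fold changes of 1.24 in IgG over input and -0.16 in p-UPF1 over input. Of 9 other deadenylases, 5 rose and 4 fell over IgG, and 4 rose and 3 fell over input. Of 14 recruiters, 3 rose and 9 fell over IgG, and 4 rose and 8 fell over input. Of 3 partner proteins, 2 rose and 1 fell in each contrast, as for the 2 other subunits 1 rose and 1 fell in each.

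By the bound criterion, 1 of these 33 genes was called, Smg5, whose protein binds phosphorylated UPF1 and links it to decay enzymes. Of all genes tested, 6.25% met the criterion. Smg5 was at 765, 776 and 778 CPM in p-UPF1, at 123, 122 and 132 in IgG and at 125, 121 and 128 in input libraries, and the p-UPF1 libraries lay far above all others. Smg5 rose by 2.62 on the log2 scale against IgG (SE 0.0425, adjusted P = 1.02e-17) and by 2.63 against input (SE 0.0424, adjusted P = 6.47e-18). Set beside it, the mRNAs of the deadenylase subunits in the list of 10 had log2 fold changes against IgG of -0.99 to 0.72. The lowest gene of the list over IgG was Zfp36l1, which encodes a protein that binds AU-rich elements and brings CCR4-NOT to them. It was at 88.8 ± 5.15 CPM for p-UPF1, 413 ± 11.8 for IgG and 488 ± 10.4 for input (SD, n = 3), a log2 fold change of -2.22 over IgG (SE 0.0465, adjusted P = 1.48e-16).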

How the data were processed

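RNA was precipitated with an antibody to p-UPF1 or with rabbit IgG, or taken from the lysate, and sequenced. The authors deposited raw counts of reads per gene, without scaling. The submitters' processing notes name cutadapt, HISAT2, featureCounts and mm10. How reads on opposite strands were counted for these libraries is not given in the sources used here, and the counts show no use of molecular identifiers, so PCR copies may count as separate reads. Columns carried letters, so each was assigned to its group only.

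Counts were analysed in R 4.3.3 with edgeR 4.0.16: filterByExpr (minimum count 10, total 15; 13129 of 27179 genes, 99.95% of counts), TMM factors, a fit of 3 groups to all 9 libraries (6 residual degrees of freedom) and two-sided quasi-likelihood tests, with log2 fold changes at a prior count of 0.125. Gene identifiers without a symbol held 0.38% of counts. Count ratios within libraries were compared by exact permutation tests. Positions and lengths came from RefSeq on GRCm38, and NMD biotypes from GENCODE.

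The members and lists were chosen with earlier results of these data known. Named genes were the members, Cnot9, bound genes of the list of other deadenylation genes and the lowest of it over IgG, cell markers and Upf1. An item of that list is not reported here and was left out of its counts. Outside the rule for names, Leng1 was named for its overlap and Btg2 as the median of the adaptors, both after their values were seen. Btg4 was named as the gene not tested. Alternatives covered scaling, filters, a block on the column letters (added after the data were seen), DESeq2 1.42.0, limma-voom (limma 3.58.1), the libraries fitted, thresholds, lengths and pseudocounts.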

Additional observations from a re-analysis of the deposited data

How the results depend on the processing

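Member log2 fold changes were recomputed under 20 alternatives, and of 600 values 563 kept their direction and side of the threshold, 17 were no longer past it and 20 turned. No member was called bound under any alternative. The turned values belonged to 3 differences that did not pass. Cnot7 in IgG over input, -0.0018 as reported, was 0.0283 with DESeq2 size factors and with DESeq2, 0.1135 with library size alone, 0.0678 with upper-quartile factors, 0.1025 and 0.1049 with an input or IgG library as TMM reference, 0.0863 with no low-count filter, 0.0082 at 1 CPM in 3 libraries, 0.105 with only the compared groups, 0.00836 without IgG library C and 0.00411 without input library B, in a range of -0.0334 to 0.00836 over the libraries left out. Cnot10 in IgG over input, -0.04 as reported, was 0.0746 with library size alone, 0.0288 with upper-quartile factors, 0.0636 and 0.066 with the other TMM references, 0.0474 with no filter and 0.0661 with only the compared groups. Cnot6l in p-UPF1 over IgG was -0.1086 with library size alone, -0.0834 with upper-quartile factors and -0.0314 with an input library as TMM reference. Leaving out libraries, the count of members higher in IgG over input ranged from 1 to 2.

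Scaling shifted the median of all genes over IgG from -0.03 to -0.19 with library size alone and the median over input from -0.03 to 0.08 with an IgG library as TMM reference. The members' median relative to that of all genes stayed at -0.19 to -0.22 over IgG and at -0.30 to -0.42 over input. With library size alone, the falls over IgG of Cnot1, Cnot2, Cnot3 and Cnot7 were -0.41, -0.48, -0.34 and -0.37. With an IgG library as TMM reference the rise of Cnot1 over input was 0.26, and with no low-count filter it was 0.28, while the fall of Cnot6l over input was -0.22. Of the 30 per-length levels, 15 moved by more than the replicate spread with the length of the representative mRNA. The 84 recomputed count ratios kept their direction. The causes of these changes were not tested. The columns are lettered while the labels number their replicates, so no planned paired fit could use those numbers. A replicate block on the column letters, added after the data were seen, left 4 residual degrees of freedom and changed no call of a member, with 2 higher and 7 lower over IgG, 3 higher and 7 lower over input and 0 bound. Over all genes the calls went from 10845 to 10875 over IgG, from 10952 to 11002 over input and from 6950 to 7094 in IgG over input. Deviations from the group means correlated at -0.0051 to 0.0542 between libraries of the same letter and at -0.056 to 0.0222 between those of different letters. For letters A and B the values were 0.0316 to 0.0542, above all between different letters, and for C they were -0.0051 to 0.00758. All were small, and whether the letters pair the libraries cannot be told. Members had at least 583 counts per library.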
